A study of Caenorhabditis elegans with 11 samples.

Results

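Homeobox genes encode transcription factors that bind DNA through a homeodomain, a compact fold whose recognition helix reads the major groove. In C. elegans the numbered ceh genes take in most of the classes found in animals, and many older genes of the same kind keep names from their mutant phenotypes, such as lin-39, unc-86 and mec-3. They set position along the body and the identity of single neurons, muscles and epidermal cells, and many act in a handful of cells. The members described here were the genes with a ceh number, together with lin-39, mab-5, egl-5, nob-1, php-3, unc-4, unc-30, unc-42, unc-86, lin-11 and mec-3, chosen by gene name in the array's probe annotation. This gave 71 genes, 60 with a ceh number and 11 others, out of 17118 genes that had a probe set of their own. They were covered by 90 of the 22548 probe sets, and each gene was represented by its probe set of highest mean over the 11 arrays. The choice used no difference between strains.

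RNA of whole fourth-stage (L4) larvae was hybridised to Affymetrix C. elegans arrays, with 5 biological replicates of strain BW1940 and 6 of strain LT186. BW1940 carries ctIs40, an integrated transgene with wild-type dbl-1, the gene of a BMP-type TGF-beta ligand that promotes body length. The paper's methods describe ctIs40 as a cosmid together with a sur-5::gfp plasmid. GEO's labels give the genotype of BW1940 only as dbl-1. LT186 carries sma-6(wk7), a stop codon in the type I receptor for DBL-1, and is labelled sma-6. Both strains were grown on OP50 bacteria after hatching in M9 without food, and were judged L4 by eye. The comparison is therefore of a strain with added ligand, and with the other DNA of ctIs40, against one without functional receptor. No wild-type array was analysed here, so a difference cannot be assigned to either strain, and each strain is a single line.

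The labels were checked on the pathway itself. sma-6 averaged 102 ± 19.6 in BW1940 and 31.3 ± 2.79 in LT186 (SD, n = 5 and 6), a log2 fold change of 1.42 (adjusted p = 0.000312, limma with Benjamini-Hochberg adjustment over all probe sets). dbl-1 averaged 79.4 ± 21.5 in BW1940 and 57.3 ± 14.1 in LT186, and did not pass (log2 fold change 0.40, adjusted p = 0.318, limma). This is the dbl-1 probe set of highest mean only. The paper lists dbl-1 as raised in BW1940 past its own threshold, with lower means in both strains than these. Values are intensities scaled by the authors to a common level of 100 per array, and can lie below 0. Array medians were 36.96 to 39.96 in BW1940 and 34.2 to 38.8 in LT186. Every log2 fold change below is BW1940 minus LT186 on the log2(value + 10) scale, which shrinks the differences of dim probe sets. LT186 replicates 2 and 4 stood apart in a list of 39 sperm genes, whose mean log2 value, called the sperm score below, was 5.66 and 5.42 on these arrays. It was 7.06 and 7.82 in BW1940 replicates 1 and 3, and 8.93 to 9.40 on the other 7 arrays. BW1940 replicate 1 and LT186 replicates 2 and 4 are called the 3 arrays of lowest sperm score. The pair was also the most alike of all pairs of arrays, with a median absolute log2 difference of 0.114, against 0.180 for the next pair.

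No homeobox gene passed the test between strains. Of the 71 genes, 49 reached a value of 10 on at least 2 arrays and were tested, and 0 of them passed an adjusted p of 0.05 in limma in either direction, where 0.686% of the 18801 probe sets tested were called higher in BW1940 and 0.33% lower. The smallest adjusted p among the members was 0.157, for ceh-74. This gene reached 10 on 4 arrays, among which LT186 replicate 5 was the only one of its strain. Without BW1940 it would not have met the filter. At an unadjusted p under 0.05, 8 of the 49 were higher in BW1940 (16.3%) and 0 were lower, against 11.7% and 5.03% of all probe sets. ceh-40, one of the 8, passed the filter through BW1940 arrays alone, as did ceh-51, and without both genes the count was 7 of 47. The methods' t-test was run with equal variances on the same log2 values, since the software of the modified form named there was not used here. By it 0 passed after adjustment too, and 9 were past the unadjusted threshold. Scaling moved the limma split: quantile normalization gave 6 higher and 1 lower, and median centring 5 higher and 1 lower. It also moved the median log2 fold change over all probe sets, from 0.08 to 0.0026 and 0.0264 in that order. The share of all probe sets at the unadjusted threshold was not taken for these settings, nor for the count of 9. Whether these counts differ from those of other genes was therefore not tested. In none of the 49 genes did the arrays of the strains separate completely, whereas all BW1940 arrays lay above all LT186 arrays for 2.95% of probe sets and below them for 1.47%.

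The median log2 fold change of the members was 0.15, beside 0.08 over all probe sets tested, with quartiles of -0.10 and 0.27 beside -0.12 and 0.26. It was 0.0570 for all 71 genes with no filter (0.0586 for all probe sets), 0.0910 with a stricter filter (0.0730) and 0.0828 under quantile normalization (0.0026). Without BW1940 replicate 1 it was 0.0899 (0.0704). The change was above 0 in 31 of the 49 genes (63.3%), against 60.7% of all probe sets. Their spread within a strain was also like that of the rest, with a median SD of 0.32 on the log2 scale for the members and 0.31 for all probe sets. The ends of the 95% interval lay a median of 0.42 from the fold change on the log2(value + 10) scale. The interval lay within 1 either way on that scale for 44 of the 49 genes, which for dim probe sets does not exclude a doubling of the intensity. In whole animals, fewer cells of a type and less RNA per cell cannot be told apart.

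**Figure D1:**
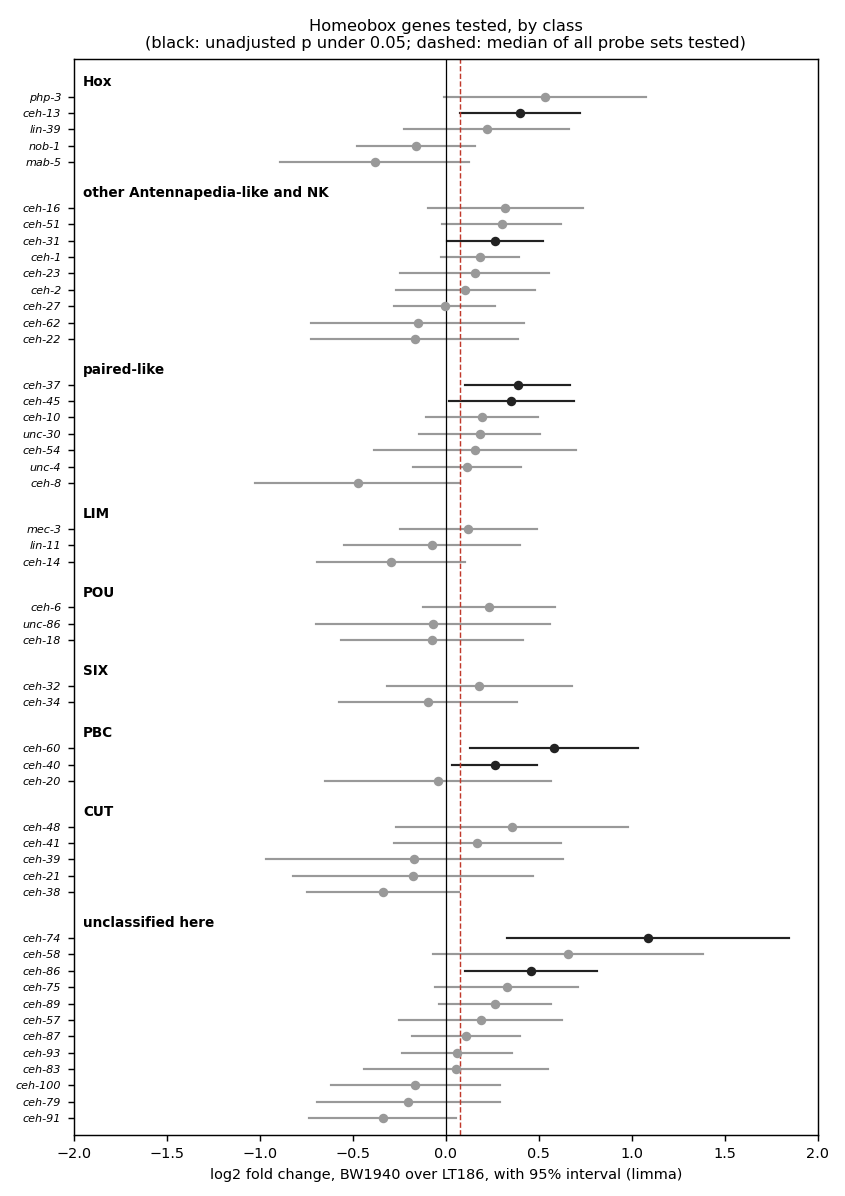
Log2 fold change (BW1940 minus LT186, log2(value + 10) scale, x axis) of the 49 homeobox genes tested, grouped by homeodomain class down the page, with 95% intervals as bars. Most intervals cross 0, the 8 genes at an unadjusted p under 0.05 all lie to the right, and none passes after adjustment. Of the 8, ceh-40 passed the filter through BW1940 arrays alone.

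The PBC class, made up of ceh-20, ceh-40 and ceh-60, holds the worm's relatives of fly Extradenticle and mammalian PBX, which bind DNA together with Hox or MEIS proteins. ceh-60 acts in the intestine, where it works with the MEIS protein UNC-62 on the vitellogenin genes, which encode yolk proteins. ceh-60 read 53.7, 86.5, 54.3, 112.7 and 90.2 on the BW1940 arrays, and 38.1 at the lowest, 46.3 at the median and 72.1 at the highest on the LT186 arrays. Its BW1940 mean was 79.5 ± 25.3 and its LT186 mean 49 ± 12.7, with a log2 fold change of 0.58 (SE 0.21, adjusted p = 0.191, limma). Every BW1940 value was above the LT186 median, and the LT186 maximum, replicate 6, lay above BW1940 replicates 1 and 3.

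A second ceh-60 probe set gave the same direction. The paper lists ceh-60 as raised in BW1940 past its own threshold, with the strain means of this second probe set. An entry described there as PBX2 has the strain means of the brighter probe set. It read 31.6, 43, 20.3, 33.7 and 36.5 in BW1940, and in LT186 18.3, 11.3, 16.3, 10.5, 8.81 and 25.4. The means were 33 ± 8.29 in BW1940 and 15.1 ± 6.21 in LT186, with a log2 fold change of 0.79 (SE 0.19, adjusted p = 0.0827, limma), and only LT186 replicate 6 overlapped the BW1940 range. The exact two-sided permutation p over all divisions of the 11 arrays was 0.0260 for the brighter and 0.00866 for the dimmer probe set, the smallest this design allows being 0.00216.

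The vitellogenin genes, taken from a list of the targets of ceh-60 and unc-62, were uneven within both strains. The mean log2 value of the 5 measured (vit-1, vit-2, vit-4, vit-5 and vit-6) was 6.72, 8.45, 4.88, 9.21 and 9.39 on the BW1940 arrays and 5.78, 3.98, 5.83, 4.12, 4.26 and 8.81 on the LT186 arrays. LT186 replicate 6 was thus the single LT186 array with a high vitellogenin level. BW1940 replicate 3 was below LT186 replicates 1 and 3 as well. vit-1 averaged 135 ± 74.9 in BW1940 and 17 ± 38.7 in LT186 (log2 fold change 2.35, SE 0.71, adjusted p = 0.140, limma). All 5 had positive fold changes, with a median of 2.31, 3 were past an unadjusted p of 0.05 and 0 passed after adjustment. The vit genes are close copies of each other, so their probe sets may share signal.

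The order of the arrays in ceh-60 was set beside that in yolk transcripts. The 4 arrays highest in the brighter ceh-60 probe set, BW1940 replicates 4, 5 and 2 and LT186 replicate 6, were the 4 highest in the vitellogenin mean, and LT186 replicates 2, 4 and 5 were the 3 lowest in both. In the dimmer ceh-60 probe set BW1940 replicates 2, 5 and 4 were again the 3 highest, but BW1940 replicate 1 came next and LT186 replicate 6 was the fifth. This is a description of the 11 arrays, which share other differences. The mean log2 value of 10 intestinal marker genes was 9.22 to 9.42 in BW1940 and 8.56 to 9.05 in LT186, without overlap. Of these 10 markers 7 were higher in BW1940 at an unadjusted p under 0.05, none passed after adjustment, and the lowest reading of any of them was 37.8. The part of this difference in the ceh-60 values was not tested.

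**Figure D2:**
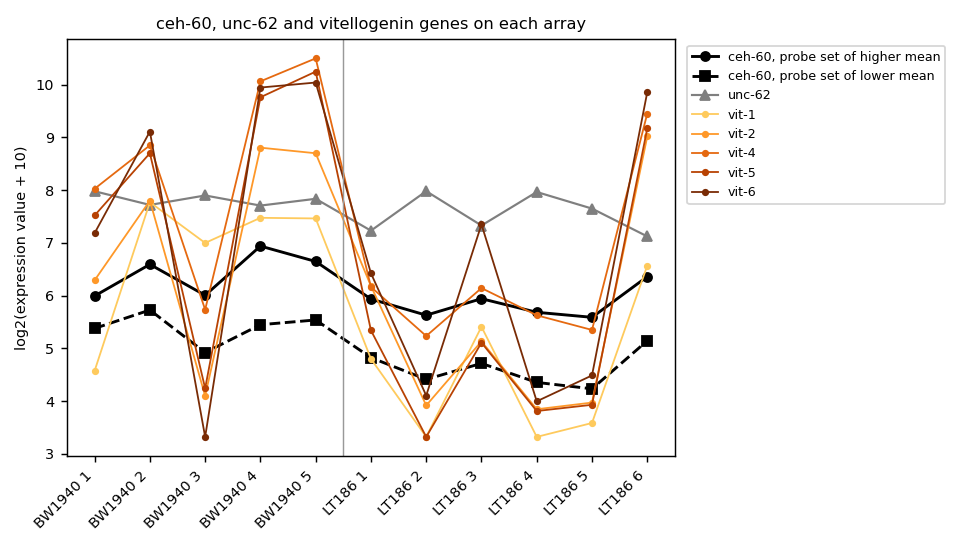
Value on the log2(value + 10) scale (y axis) of both ceh-60 probe sets, unc-62 and 5 vitellogenin genes on each array (x axis, BW1940 left of LT186), with lines that only join the points of a gene. BW1940 replicates 2, 4 and 5 and LT186 replicate 6 are the 4 highest arrays for the upper ceh-60 line and for the vitellogenin mean.

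The other partners were less different. ceh-40 read 9.87, 13.7, 12.2, 7.89 and 9.68 in BW1940 and 5.90, 7.05 and 8.46 (lowest, median, highest) in LT186. It passed the filter value of 10 on 2 arrays, both of BW1940. Its log2 fold change of 0.26 is therefore given without a p-value, although the gene is counted among the 8. BW1940 replicate 4 alone lay within the LT186 range. ceh-20, which partners the Hox proteins in mesoderm and neuroblast migration, averaged 148 ± 46.1 in BW1940 and 158 ± 63.5 in LT186 (log2 fold change -0.04, adjusted p = 0.970). The second ceh-20 probe set gave 0.26. unc-62, which is not a member but is the partner of the class, averaged 218 ± 18.4 in BW1940 and 182 ± 50.1 in LT186 (0.28, SE 0.18, adjusted p = 0.472).

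Hox genes assign position along the anterior-posterior axis. The worm has 6, in 3 pairs that are each close on a chromosome: lin-39 and ceh-13, mab-5 and egl-5, and php-3 and nob-1. ceh-13, the labial-type gene needed for anterior embryonic development, read 201, 200, 151, 207 and 234 in BW1940 and 122, 145 and 193 (lowest, median, highest) in LT186. It had a log2 fold change of 0.40 (SE 0.15, adjusted p = 0.202, limma; exact permutation p = 0.0216). BW1940 replicate 3 was inside the LT186 range and the other 4 BW1940 arrays were above it. lin-39, its neighbour, specifies the vulval precursor cells of the mid-body, and its change was 0.22 (SE 0.20, adjusted p = 0.668), with 19.8 to 37.8 in BW1940 and 14.1 to 36.2 in LT186.

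mab-5 controls cell fate and migration in the posterior body. It read 86, 45.5, 68.8, 66.7 and 50.4 in BW1940 and 55.3, 86.3 and 138 (lowest, median, highest) in LT186, where replicates 2 and 4 were highest at 138 and 106. The log2 fold change was -0.38 (SE 0.23, adjusted p = 0.458, limma), whereas the second mab-5 probe set gave -0.0032, with a mean of 41.7 in both strains. egl-5, the Abdominal-B type gene of the tail region, passed the filter on 1 array only and was not tested, with 8.97 ± 5.51 in BW1940 and 6.60 ± 1.99 in LT186.

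The posterior pair, php-3 and nob-1, lie side by side. php-3 read 24.5, 8.76, 25.4, 16.9 and 45.1 in BW1940 and 7.12, 12.6 and 18.6 (lowest, median, highest) in LT186. Its fold change of 0.54 (SE 0.25, adjusted p = 0.304, limma; exact permutation p = 0.0736) did not pass, and BW1940 replicates 2 and 4 were inside the LT186 range. nob-1 averaged 27.4 ± 7.71 in BW1940 and 31.2 ± 4.12 in LT186 (-0.16, SE 0.15, adjusted p = 0.663), and its other 2 probe sets gave 0.04 and 0.03. Of 8 genes of the lineages in which lin-39 and mab-5 act, 0 passed at either threshold, with a median log2 fold change of 0.04. Among them hlh-8, a Twist-type factor of the mesoderm, had 0.30 and eff-1, which fuses epidermal cells, had -0.29.

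**Figure D3:**
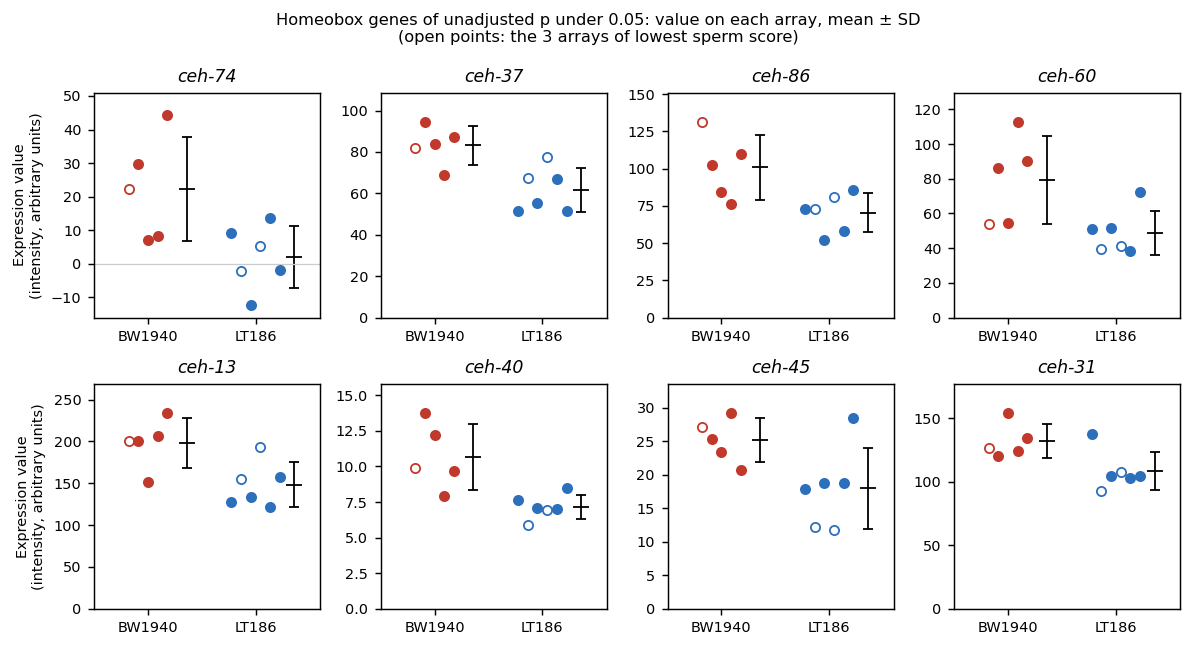
Intensity (y axis, arbitrary units) of the 8 homeobox genes at an unadjusted p under 0.05, one point per array, BW1940 on the left and LT186 on the right of each panel, with the mean and SD of each strain and the 3 arrays of lowest sperm score as open points. The BW1940 mean is the higher in all 8 panels, and the arrays of the strains overlap in each. Of the 8, ceh-40 passed the filter through BW1940 arrays alone.

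The paired-like class held 11 members, of which 7 were tested. Their fold changes lay between -0.47 and 0.39, with 6 above 0, and ceh-37 and ceh-45 were among the 8. ceh-37 is one of the worm's Otx-type genes and is needed in the AWB olfactory neuron. It read 82.0, 94.4, 83.8, 68.6 and 87.2 in BW1940 and 51.3, 61.2 and 77.5 (lowest, median, highest) in LT186. The means were 83.2 ± 9.44 in BW1940 and 61.6 ± 10.6 in LT186, a 1.35-fold difference (log2 fold change 0.39, SE 0.13, adjusted p = 0.171, limma; exact permutation p = 0.0108), and its second probe set gave 0.26. With the sperm score added to the fit as a covariate, which was chosen after the data were seen, ceh-37 passed at 0.42 (adjusted p = 0.0451, limma) and its second probe set did not (0.32, adjusted p = 0.159).

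ceh-45, a goosecoid-like gene, read 27.1, 25.3, 23.4, 29.1 and 20.7 in BW1940 and 11.8, 18.3 and 28.4 (lowest, median, highest) in LT186. All BW1940 values except the highest lay within the LT186 range because LT186 replicate 6 read 28.4. The other LT186 arrays read 11.8 to 18.8, below every BW1940 array. Its log2 fold change was 0.35 (SE 0.15, adjusted p = 0.276, limma; exact permutation p = 0.0433). ceh-8 gave the lowest fold change of all members, -0.47 (adjusted p = 0.377), with means of 14 ± 8.53 in BW1940 and 21.9 ± 6.24 in LT186. unc-4, which sets the identity of a class of motor neurons, had 0.11, and unc-30, the Pitx-type gene that specifies GABA motor neurons, had 0.18. unc-42, which acts in command interneurons, was near 0 in both strains, at 0.0948 ± 4.79 in BW1940 and -3.89 ± 3.18 in LT186.

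The target lists of these neuronal factors did not pass either. Of 4 GABA genes acting under unc-30, 0 passed after adjustment and 1 was lower in BW1940 at an unadjusted p under 0.05. That gene was snf-11, the GABA transporter, with 49.3 ± 37.7 in BW1940 and 95.7 ± 46.3 in LT186 (log2 fold change -0.92, adjusted p = 0.275, limma). unc-86, a POU factor, and mec-3, a LIM factor, act together to specify the touch receptor neurons. mec-3 averaged 54.5 ± 12.3 in BW1940 and 49 ± 10.7 in LT186 (0.12, adjusted p = 0.806), and unc-86 averaged 58.3 ± 18.3 in BW1940 and 63.8 ± 30.7 in LT186 (-0.07, adjusted p = 0.949). Of 9 touch neuron genes tested, 0 passed, 1 was lower at the unadjusted threshold (mec-9, -0.43, adjusted p = 0.258), and the median log2 fold change was -0.10. A list of 13 neuronal markers had a median of 0.13, with 2 higher at the unadjusted threshold and 0 after adjustment.

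The Antennapedia-like and NK genes other than the Hox genes held 17 members, of which 9 were tested, with 6 fold changes above 0 and a range from -0.17 to 0.32. ceh-31, a BarH-type gene, read 127, 120, 154, 124 and 134 in BW1940 and 92.7, 105 and 138 (lowest, median, highest) in LT186. The fold change was 0.26 (SE 0.12, adjusted p = 0.287, limma; exact permutation p = 0.0238). Of the 5 BW1940 arrays 4 lay inside the LT186 range because LT186 replicate 1 read 138, against 92.7 to 107 for the other 5. ceh-30, its neighbour and close relative, was not tested, with 1.12 ± 2.35 in BW1940 and 2.43 ± 2.65 in LT186. ceh-16, the engrailed gene of the seam cells, had 0.32 (adjusted p = 0.444), and ceh-22, an NK-2 factor of pharyngeal muscle, -0.17 (adjusted p = 0.829). The 4 pharyngeal genes myo-1, myo-2, tnc-2 and pha-4 had a median of 0.29, and 0 passed at either threshold.

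ceh-28 has a known tie to this pathway, since it drives dbl-1 in the M4 neuron of the pharynx. Its probe set was below 0 on all 11 arrays, with a mean of -7.13 ± 2.65 in BW1940 and -6.35 ± 2.49 in LT186, and nothing can be said of its level in this one neuron. The same was seen for ceh-81 and ceh-84. In all, 22 members were not tested, 17 of which reached 10 on no array and 5 on a single array. They included genes that act in few cells, such as ceh-36, the Otx-type gene of the ASE and AWC sensory neurons, and ceh-17. The highest mean of any of the 22 over the 11 arrays was 7.68, and their highest single value 18.5. By contrast 30 members were at 10 or above on all 11 arrays.

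A further 19 members were given no class here, of which 12 were tested, with 9 fold changes above 0 and a median of 0.15. ceh-74 and ceh-86 of this group were among the 8. ceh-74 had the highest fold change of all members. It read 22.2, 29.7, 7.06, 8.19 and 44.3 in BW1940, against -12.3, 1.75 and 13.5 (lowest, median, highest) in LT186, so that 3 BW1940 arrays stood above all LT186 arrays and the other 2 did not. The log2 fold change was 1.09 (SE 0.35, adjusted p = 0.157, limma; exact permutation p = 0.0281). Its size depended on the offset, at 2.60 with an offset of 1 and 0.38 with an offset of 50, and LT186 read below 0 on 3 arrays. LT186 reached the filter value on replicate 5 only, so ceh-74 met the filter through BW1940, where it is high. Its p-values are not read as support. ceh-86 read 131, 102, 84.3, 76.4 and 110 in BW1940 and 52.2, 72.8 and 85.7 (lowest, median, highest) in LT186, a 1.43-fold difference of means (0.46, SE 0.16, adjusted p = 0.187, limma; exact permutation p = 0.0195). ceh-58 had a log2 fold change of 0.66 (adjusted p = 0.350, limma; exact permutation p = 0.00866). Its size rested on BW1940 replicate 2, which read 78.3 against 9.95 to 16.2 on the other BW1940 arrays. The LT186 maximum was 11.7, and BW1940 replicate 4 alone lay within the LT186 range. Without BW1940 replicate 2 the fold change was 0.26, and the second ceh-58 probe set gave -0.11.

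The CUT, sine oculis, POU and LIM classes gave none of the 8. The CUT genes include ceh-38, ceh-39, ceh-41 and ceh-21, of the ONECUT type, and ceh-39 is one of the X-linked signals that set the sex of the embryo. Their median log2 fold change was -0.17, with 2 of the 5 tested above 0. ceh-39 read 34.7, 9.58, 32, 29.8 and 16.5 in BW1940 and 9.23, 21.5 and 61.2 (lowest, median, highest) in LT186, where replicates 2 and 4 were at 61.2 and 59.1. ceh-38 averaged 93.3 ± 19.3 in BW1940 and 122 ± 29 in LT186 (-0.34, SE 0.19, adjusted p = 0.395, limma), and its second probe set gave 0.20. ceh-32, of the sine oculis family and needed for head morphogenesis, averaged 226 ± 70.7 in BW1940 and 192 ± 33.9 in LT186 (0.18, SE 0.23, adjusted p = 0.779). lin-11, a LIM factor of vulval and neuronal development, averaged 44.7 ± 11.1 in BW1940 and 49.1 ± 18.5 in LT186 (-0.07, SE 0.22, adjusted p = 0.924). The other LIM gene, ceh-14, which acts in the AFD thermosensory neuron, had -0.29 (adjusted p = 0.466). Of the POU genes, ceh-6, which acts in the excretory cell, had 0.23 (adjusted p = 0.534), and ceh-18, which acts in the gonadal sheath, -0.07 (adjusted p = 0.927), with 0.38 by its second probe set.

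Several of these genes read highest where the sperm score was low. LT186 replicates 2 and 4 were the 2 highest of the 11 arrays for 9 of the 49 genes (18.4%), against 9.72% of all probe sets, and the 2 lowest for 3 genes (6.12%), against 9.31%. The 9 were ceh-14, ceh-20, ceh-21, ceh-22, ceh-34, ceh-39, lin-11, mab-5 and unc-86, and the 3 were ceh-6, ceh-40 and ceh-45. unc-86 read 95.2 and 110 on these arrays and 28.3 to 76.4 on the other 9. ceh-20 read 241 and 221 there, and 87.7 to 221 on the others. These 12 genes were picked out by the values themselves, so the counts are a description. Without the 3 arrays of lowest sperm score, or without LT186 replicates 2 and 4 alone, both chosen after the data were seen, ceh-20, ceh-21, ceh-39, lin-11 and unc-86 had positive fold changes, none passing. These genes were picked for reading highest on LT186 replicates 2 and 4. Leaving that pair out therefore raises their fold changes by construction, and the signs give no support. Without LT186 replicates 2 and 4, 6 of the 49 genes were higher at the unadjusted threshold and 1 was lower. The share of all probe sets at that threshold was not taken in that fit. With the sperm score as a covariate 1 of the 49 genes passed as higher, ceh-37, against 4.01% of all probe sets, and 1 as lower, against 4.56%. The lower one was ceh-91 (-0.41, SE 0.11, adjusted p = 0.0394, limma), whose values were 7.52 ± 3.24 in BW1940 and 12.3 ± 4.55 in LT186. Among the BW1940 arrays only replicate 2 reached the filter value, at 10.3. Without LT186, where it is high, ceh-91 would not have met the filter, so its adjusted p is not read as support. In that fit the dimmer ceh-60 probe set also passed (0.75, SE 0.17, adjusted p = 0.0262), but not the brighter (0.53, adjusted p = 0.0814). The sperm list itself had a median log2 fold change of 0.54 with 0 of 39 genes at either threshold, and 21 germ line and oocyte genes had a median of -0.30 with 3 lower at the unadjusted threshold. The part of the sperm and germ line differences in the homeobox values was not tested beyond these fits.

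**Figure D4:**
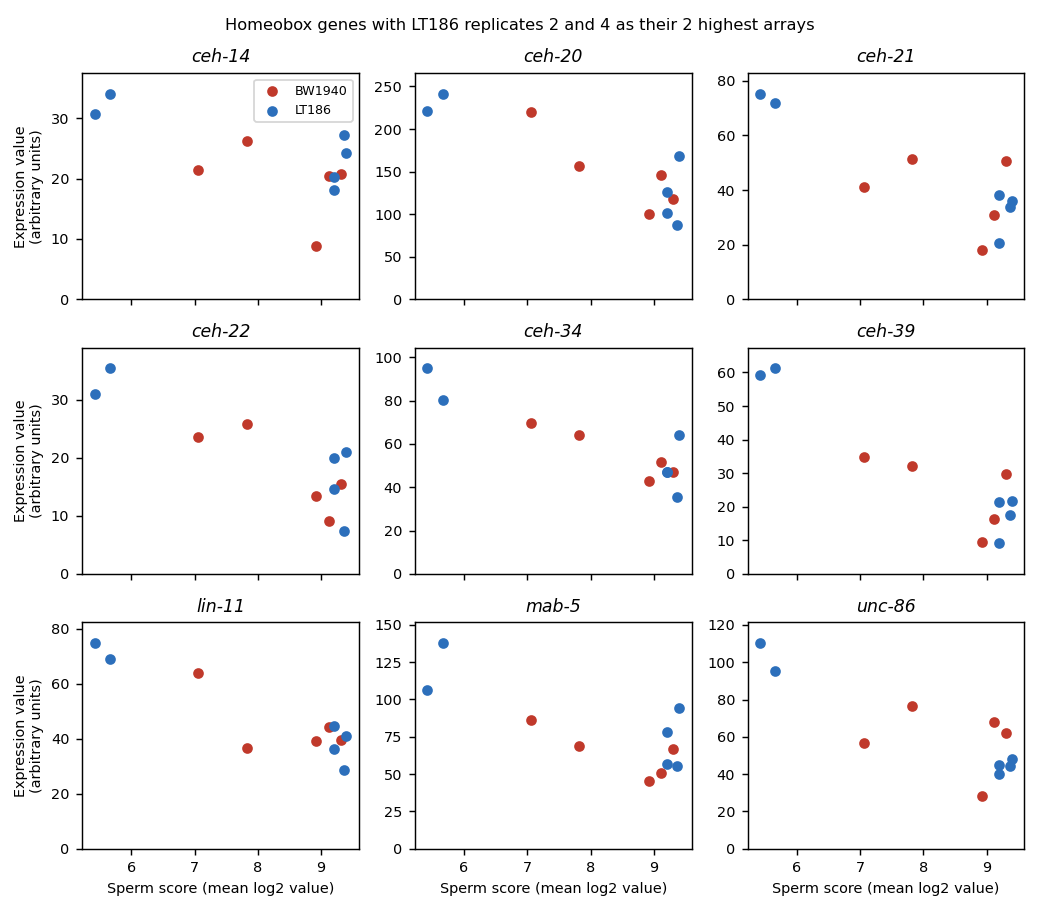
Intensity (y axis, arbitrary units) of 9 homeobox genes against the mean log2 value of 39 sperm genes on the same array (x axis), each point an array, by strain. The genes were picked since LT186 replicates 2 and 4, at 5.66 and 5.42 on the x axis, were their 2 highest arrays, and BW1940 replicates 1 and 3 lie between these and the rest on the x axis.

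Genes with several probe sets gave a check on single readings. Of the 16 such genes, 14 had at least 2 probe sets tested, and the signs of the fold change differed among them in 8: ceh-18, ceh-20, ceh-21, ceh-22, ceh-38, ceh-39, ceh-58 and nob-1. The signs were the same for ceh-32, ceh-37, ceh-41, ceh-60, lin-11 and mab-5. ceh-60 was the one gene of these 14 whose probe sets gave the same sign and both lay past an unadjusted p of 0.05.

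**Figure D5:**
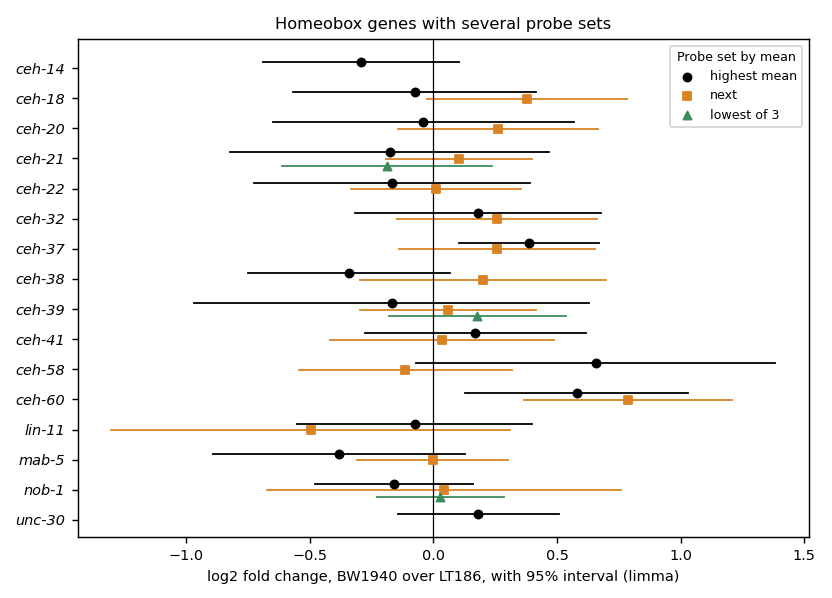
Log2 fold change (BW1940 minus LT186, x axis) with its 95% interval for every tested probe set of the 16 homeobox genes with several, one gene per row and ordered by mean within a gene. The signs differ in 8 of the 14 genes with at least 2 tested, and both ceh-60 intervals lie above 0.

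Homeobox genes outside the naming rule were read as a background. Of 26 measured, 23 were tested, 0 passed after adjustment, and 3 were higher in BW1940 at an unadjusted p under 0.05 with none lower. Over all probe sets 11.7% were higher and 5.03% lower at that threshold in limma. duxl-1, a homeobox gene of its own class, read 31.1, 40.4, 34.5, 25.4 and 39.7 in BW1940 and 14.8, 20.8 and 25.8 (lowest, median, highest) in LT186, and BW1940 replicate 4 alone overlapped LT186 (0.54, SE 0.13, adjusted p = 0.0822, limma; exact permutation p = 0.00433). Its strain means, 34.2 in BW1940 and 20.4 in LT186, match those of a homeobox entry that the paper lists as raised in BW1940. psa-3, a MEIS-type gene of asymmetric cell division, had 0.37 (adjusted p = 0.171). pax-3, a paired-domain gene, had 0.66 (adjusted p = 0.290), with BW1940 replicate 5 at 260.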

How the data were processed

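The authors scanned the arrays with Microarray Suite, and converted the probe intensity readings to expression estimates with Probe Profiler, scaled globally to 100. The deposited table holds these intensity values on a linear scale, with no counts. The number of arrays limits the precision. GEO's processing notes name MAS5 version 5. Of the 22548 probe sets, 20766 were annotated to 1 gene symbol, 887 to several and 895 to none, and only the first kind was named. All 71 members matched a RefSeq gene, which was used for gene order. Groups came from the sample titles, the strain names from the study's methods.

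From the table, values below 0 were set to 0, and log2(value + 10) was fitted with limma 3.58.1 in R 4.3.3 on all 11 arrays, for probe sets at 10 or above on at least 2 arrays, with Benjamini-Hochberg adjustment over the 18801 tested and a threshold of 0.05. Exact permutation tests of single genes were two-sided. The fit was tested on simulated data. The 95% intervals are limma's. p-values are also given unadjusted, since 0 members passed.

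Genes named were the members past the adjusted threshold or with no overlap between strains, the 10 of smallest unadjusted p under 0.05, the 6 Hox genes, unc-4, unc-30, unc-42, unc-86, lin-11 and mec-3, the 5 of highest mean, the 5 most variable within strains, and ceh-28, ceh-60, ceh-37 and ceh-45. From the other lists came genes past the threshold or the 2 of smallest p, the other homeobox genes at an unadjusted p under 0.05, and unc-62. Other genes named, among them ceh-8, ceh-16, ceh-22, ceh-30, ceh-91, hlh-8, eff-1 and those picked by array order, were chosen after their values were seen. The members and lists were chosen with earlier results of these data known. Alternatives were the offset, the filter, quantile normalization, median centring, array weights, a replicate block, an equal-variance t-test on the log2 values in place of the methods' modified t-test, the probe set of smallest mean and leaving out each array. Further alternatives, added once the values were known, took the sperm score as a covariate, left out the 3 arrays of lowest sperm score, left out LT186 replicates 2 and 4, and averaged those 2 arrays. Nothing in the labels says whether the biological replicates were separate cultures. The paper speaks of independent experiments, without describing the cultures of each. The p-values therefore measure the spread between these samples. No sequences of the genes were used here.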

Additional observations from a re-analysis of the deposited data

Results flagged for a closer look

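Dixon's test, with a nominal rate of 1 in 20 groups, was run on the intensities of 52 strain groups of the 26 named members. In 4 of these groups a single array stood apart from the other arrays of its strain. Some members, ceh-58 among them, were named for their spread within strains. The nominal rate therefore does not hold for these groups, and the count is a description only. For ceh-58, BW1940 replicate 2 read 78.3, against 9.95 to 16.2 on the other BW1940 arrays. For egl-5, BW1940 replicate 3 read 18.5, against 4.25 to 7.86, and this was the one array on which egl-5 passed the filter value. For lin-11, BW1940 replicate 1, one of the 3 arrays of lowest sperm score, read 63.8, against 36.7 to 44.3. For ceh-31, LT186 replicate 1 read 138, against 92.7 to 107 on the other LT186 arrays.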

How the results depend on the processing

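The number of probe sets past the adjusted threshold, 191 with the settings of the report, was 366 with an offset of 50, 416 with no filter, 443 with array weights, 381 by the t-test run in place of the methods' modified one, 5 with the replicate block, 1611 with the sperm score as covariate, 83 without the 3 arrays of lowest sperm score, and 78 to 151 when each array was left out. The homeobox genes higher at an unadjusted p under 0.05, 8 in the report, were 13 with no filter, 5 with median centring, 5 with the replicate block and 5 to 9 with each array left out. The lower ones, 0 in the report, were 1 under quantile normalization, median centring, array weights, the covariate, without the 3 arrays, with LT186 replicates 2 and 4 left out, and with LT186 replicates 2 and 4 averaged, and 0 to 1 with each array left out. Outside the settings of the report, these unadjusted counts have no share of all probe sets beside them. After adjustment 1 was higher and 1 lower with the covariate. The labels do not say that the replicate numbers pair the samples. Deviations from the strain mean of each probe set were correlated between same-numbered arrays, giving -0.688, -0.639, -0.301, -0.586 and 0.105. These values do not decide the pairing. The replicate block thus rests on a shared number only, and no homeobox gene passed under it.

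Of 558 values of single named genes under 25 settings, 517 kept direction and side of the threshold, 40 turned in sign and 1, ceh-37 with the covariate, passed. 15 of the 23 genes did not turn under any. With array weights ceh-20 became 0.18, ceh-21 0.11, ceh-39 0.17, lin-11 0.0215 and unc-86 0.22. Without the 3 arrays of lowest sperm score they were 0.12, 0.13, 0.18, 0.0755 and 0.28 in that order, and with both LT186 replicates 2 and 4 left out 0.27, 0.16, 0.29, 0.19 and 0.28. The covariate gave 0.0643 for ceh-20, 0.0089 for lin-11 and 0.0320 for unc-86, and averaging LT186 replicates 2 and 4 gave 0.0814 for ceh-20, 0.0157 for ceh-39, 0.0308 for lin-11 and 0.0712 for unc-86. The probe set of smallest mean gave 0.26 for ceh-20, 0.18 for ceh-39, 0.20 for ceh-38, 0.0281 for nob-1 and -0.11 for ceh-58. With each array left out ceh-20 ranged from -0.19 to 0.0936, ceh-21 from -0.33 to 0.0060, ceh-39 from -0.36 to 0.0200, lin-11 from -0.19 to 0.0410 and unc-86 from -0.17 to 0.13. ceh-20, ceh-21, ceh-39, lin-11 and unc-86 read highest on LT186 replicates 2 and 4. Leaving that pair out therefore raises their fold changes by construction. The cause of the other turns was not tested. Dim probe sets limit what can be seen: 22 members had at most 1 array at 10 or above, and their order is not read.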

Other observations

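Gene lists fixed as markers of the tissues in a whole larva gave a setting for the homeobox values. Of 10 body wall muscle genes, 4 were higher in BW1940 at an unadjusted p under 0.05 and 0 passed after adjustment in limma, with a median log2 fold change of 0.23. Of 12 hypodermal and molting genes 1 was higher at the unadjusted threshold, and their mean log2 value was 7.82 to 9.49 on the BW1940 arrays and 7.82 to 9.52 on the LT186 arrays. The mean of the neuronal markers was 7.32 to 7.82 on the BW1940 arrays and 7.07 to 7.79 on the LT186 arrays.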
